A study of Mus musculus with 24 samples.

Results

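Colonic stromal cells that lacked the Rspo3 reporter were divided by CD31, and the CD31+ fraction was set against the CD31- fraction by RNA sequencing. Members were chosen by their labels alone: colon, Rspo3-negative, and CD31-positive or CD31-negative. They make up 6 of the 24 libraries, 3 of CD31+ Rspo3- cells and 3 of CD31- Rspo3- cells. All mice were on a C57Bl6 background, were 8-12 weeks old and carried an Rspo3 GFP transgene, and "Rspo3-" means that the sorted cells were negative for that GFP. Small intestinal Rspo3- cells and colonic Rspo3+ cells (GFP-positive), each divided by CD31 in the same way with 3 libraries a group, serve for comparison. The sorted population was stroma depleted of Epcam+ and CD45+ cells. Both fractions are therefore mixtures: CD31+ sorts blood and lymphatic endothelium together, and CD31- holds every other stromal cell that the gate lets through. Nothing in the labels ties a library to an animal, and p-values measure only the spread between libraries, which may be technical. The groups are called CD31+ and CD31- libraries in what follows, and both are colonic and Rspo3- unless another gate is named.

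CD31, the product of Pecam1, is an adhesion protein of the contacts between endothelial cells and is the usual surface mark by which endothelium is sorted from the gut wall. Endothelium lines arteries, capillaries, veins and lymphatics, and each of these vessel types has its own receptors, transcription factors and adhesion proteins. The CD31- compartment of the mucosa and muscle holds fibroblasts, smooth muscle, pericytes and glia, which secrete the Wnt, BMP and R-spondin signals that pattern the crypt. The comparison asks which genes separate these compartments when both were sorted as Rspo3-, with Rspo3+ cells removed.

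Total counts were 20755019 to 22899519 in the 3 CD31+ libraries and 15073290 to 24458933 in the 3 CD31- libraries. Log-scale correlations between libraries were 0.965 to 0.980 within these groups and 0.839 to 0.907 between them. CD31+ library 3 stood apart from the other CD31+ libraries: the summed level of 15 pan-fibroblast genes was 958, 1324 and 6036 TPM in CD31+ libraries 1, 2 and 3, against 19007, 22811 and 18080 TPM in CD31- libraries. TPM is a level scaled to gene length and to one common total per library. The same library had the highest summed level of the CD31+ group for 9 enteric glia genes (26.3, 30.6 and 100.5 TPM, against 492, 409 and 290.2 TPM in CD31- libraries). Its 18 pan-endothelial genes had the lowest summed level of the group (7165, 7253 and 5437 TPM, against 115, 132 and 89.9 TPM in CD31- libraries). Some results on genes of fibroblasts and other CD31- cells are therefore also given without CD31+ library 3, where this is stated. All other results include it.

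Both fractions held RNA of genes that mark the depleted cells. Whether it came from cells that remained was not tested. Epcam, the epithelial surface protein used for depletion, had 23.2, 9.12 and 59.1 CPM in CD31+ libraries, against 326, 101 and 248 CPM in CD31- libraries. Ptprc, which encodes CD45, had 2.35, 1.35 and 6.08 CPM in CD31+ libraries, against 0.680, 1.91 and 0.860 CPM in CD31- libraries, and the groups overlapped. Summed levels of 18 epithelial genes were 685, 287 and 1836 TPM in CD31+ libraries, against 9905, 2975 and 7328 TPM in CD31- libraries, with CD31- library 2 the lowest of its group. The part of epithelial RNA in the comparisons of genes that epithelium also uses was not tested.

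Pecam1 (chromosome 11, 106654217-106750628, minus strand, GRCm38) checks the sort and is not a finding: it had 1468, 1486 and 1061 CPM in CD31+ libraries, against 10.2, 8.18 and 12.6 CPM in CD31- libraries. CPM are TMM-scaled counts per library total, with no scaling to gene length. The log2 fold change, CD31+ over CD31- here and throughout, was 7.02 ± 0.41 (SE). All 3 CD31+ libraries were far above all 3 CD31- libraries.

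**Figure D1:**
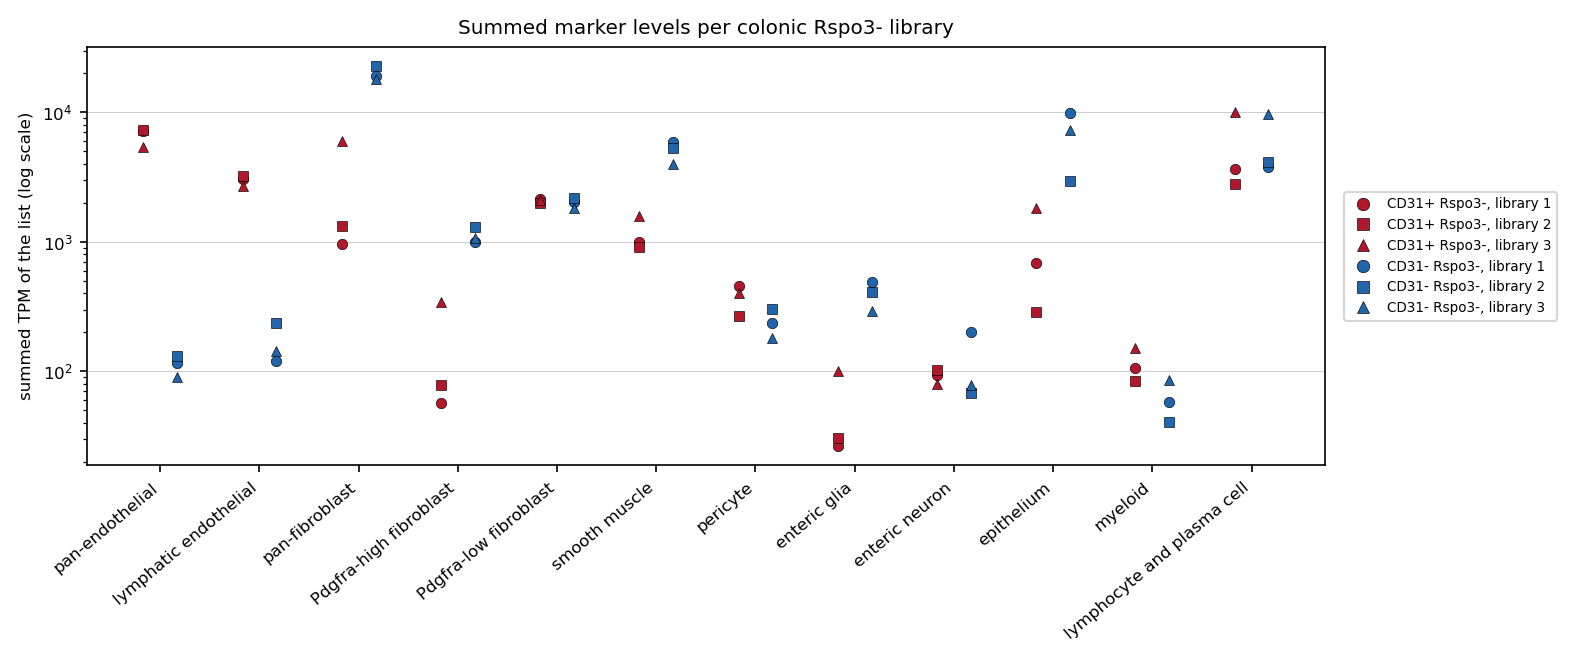
Summed TPM of 12 cell type marker lists in each colonic Rspo3- library (log axis, 1 point per library; CD31+ left of CD31-). Endothelial sums are high in all 3 CD31+ libraries, and CD31+ library 3 lies nearest to the CD31- libraries for pan-fibroblast genes, at 958, 1324 and 6036 TPM in CD31+ libraries 1, 2 and 3.

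Of 19050 genes tested, 6199 (32.5%) passed an adjusted p of 0.05 in edgeR's quasi-likelihood test, 3070 (16.1%) higher and 3129 (16.4%) lower in CD31+ than in CD31- libraries. Libraries of the groups did not overlap for 4432 genes (23.3%) that were higher and 4945 (26%) that were lower. List counts for this contrast are to be read against 16.1% of all genes higher and 16.4% lower. Those for other contrasts and for interactions have their own shares of all genes, given with them. The median log2 fold change over all genes was -0.07. Among the called genes, 1287 differed by at least 3 on the log2 scale, and 701 of these were higher in CD31+ libraries. Without CD31+ library 3, the count of lower genes was 3371, and without CD31+ library 1 or 2 it was 1864 or 1945. In the text that follows, the libraries of the groups did not overlap for any gene whose values are given, unless it is said that they did. In bulk libraries, fewer cells of a type and less RNA per cell cannot be told apart.

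**Figure D2:**
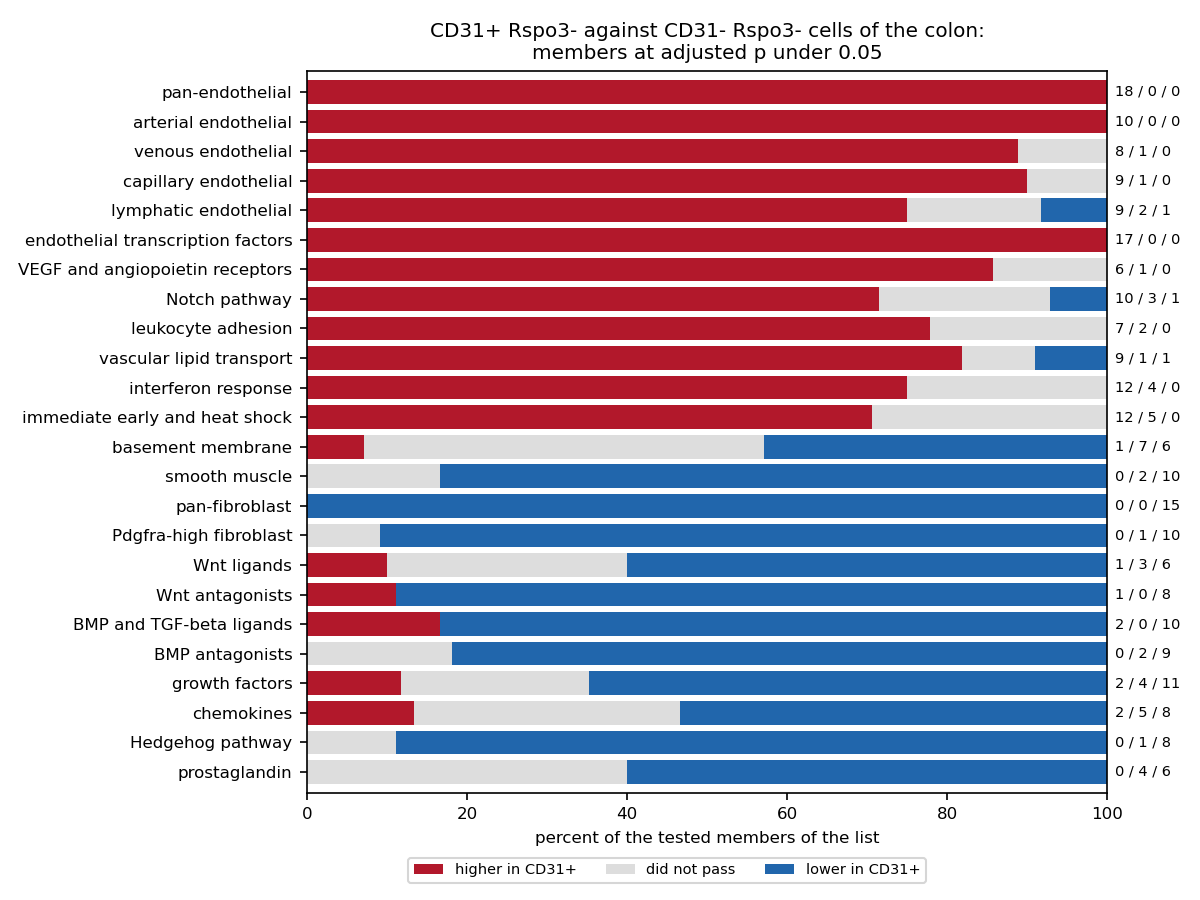
Share of tested members of 24 gene lists that rose, did not pass or fell in CD31+ relative to CD31- libraries (percent; counts at the right). The blood endothelial lists and endothelial transcription factors are almost wholly on the rising side. The fibroblast and smooth muscle lists are on the falling side. Of all genes, 16.1% rose and 16.4% fell.

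Of 18 pan-endothelial genes tested, 18 passed as higher in CD31+ libraries, against 16.1% of all genes, with a median log2 fold change of 8.27, against -0.07 over all genes. CD31+ library 3 was the lowest CD31+ library for all 18. Tie1, the orphan receptor of the angiopoietin system, had 818, 737 and 609 CPM in CD31+ libraries, against 3.897, 2.13 and 1.67 CPM in CD31- libraries (log2 fold change 8.15 ± 0.46, adjusted p = 2.4e-10). Cdh5, the cadherin of endothelial adherens junctions, had 147, 173 and 117 CPM in CD31+ libraries, against 0.433, 0.220 and 0.478 CPM in CD31- libraries (log2 fold change 8.62 ± 0.67, adjusted p = 9.4e-09). Both genes were far lower in every CD31- library. Clec14a, an endothelial C-type lectin, had 342, 320.5 and 218 CPM in CD31+ libraries, against 21.3, 19.7 and 18.5 CPM in CD31- libraries (log2 fold change 3.88 ± 0.25, adjusted p = 8.1e-10). Esam, an endothelial cell adhesion molecule, had 1051, 1203 and 825 CPM in CD31+ libraries, against 35.2, 28.4 and 21.03 CPM in CD31- libraries (log2 fold change 5.18 ± 0.39, adjusted p = 5.9e-09). Mmrn2, a matrix protein deposited along vessels, had 885, 946 and 674 CPM in CD31+ libraries, against 2.66, 0.550 and 2.01 CPM in CD31- libraries (log2 fold change 8.95 ± 0.68, adjusted p = 6.3e-09). Clec14a and Esam were thus detected in every CD31- library as well. The smallest log2 fold change of the list was that of Eng, the endothelial TGF-beta co-receptor, with 439, 375 and 329 CPM in CD31+ libraries, against 45.1, 75.8 and 45.97 CPM in CD31- libraries (log2 fold change 2.77 ± 0.28, adjusted p = 2.4e-07).

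**Figure D3:**
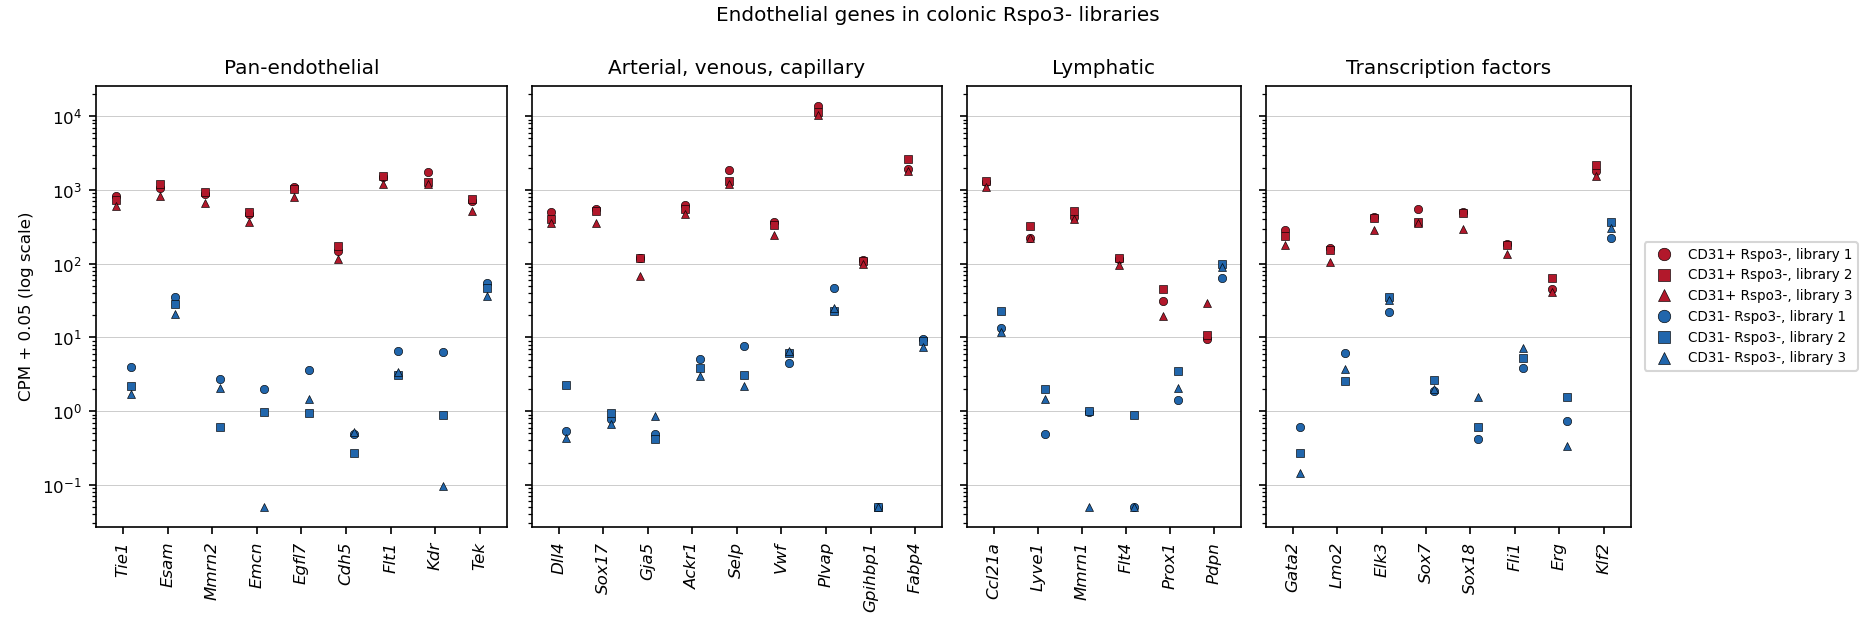
CPM + 0.05 (log axis) of endothelial genes in each colonic Rspo3- library, CD31+ left of CD31-, in panels for pan-endothelial, arterial, venous and capillary, lymphatic, and transcription factor genes. Points of the 2 groups are separate for every gene drawn, and Pdpn is the single gene drawn whose CD31- points lie above its CD31+ points.

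Receptors for VEGF and angiopoietins, the growth factors that maintain vessels, rose in 6 of 7 tested members. Flt1 (VEGF receptor 1) had 1506, 1549 and 1199 CPM in CD31+ libraries, against 6.43, 3.08 and 3.297 CPM in CD31- libraries (log2 fold change 8.39 ± 0.68, adjusted p = 1.5e-08). Kdr (VEGF receptor 2, the main signalling receptor of blood endothelium) had 1741, 1274 and 1193 CPM in CD31+ libraries, against 6.31, 0.844 and 0.0478 CPM in CD31- libraries (log2 fold change 9.26 ± 1.01, adjusted p = 8.0e-07). CD31- library 1 was the highest of its group for both, and it stayed far under the lowest CD31+ library. Tek, the angiopoietin receptor, had 719.7, 748 and 522 CPM in CD31+ libraries, against 54.00, 46.5 and 36.2 CPM in CD31- libraries (log2 fold change 3.86 ± 0.32, adjusted p = 2.0e-08). It was detected in every CD31- library. Flt4, the VEGF-C receptor of lymphatic endothelium, had 114, 118 and 97.5 CPM in CD31+ libraries, against 0, 0.844 and 0 CPM in CD31- libraries (log2 fold change 8.35 ± 0.78, adjusted p = 9.6e-08). Nrp1, a VEGF co-receptor, had 1031, 999 and 758 CPM in CD31+ libraries, against 116, 216 and 167 CPM in CD31- libraries (log2 fold change 2.48 ± 0.32, adjusted p = 6.7e-06).

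The 2 receptor genes below are shown by their promoters as pan-endothelial receptors that rose. The sequences are RefSeq's, build GRCm38.p6, and give the 250 bases before the gene start, 5′ to 3′. Capitals mark GGAA or its reverse complement TTCC, the core that ETS factors bind, which includes Erg, Fli1, Ets1 and Elk3.
Flt1 (chr5:147726012-147726261, minus strand): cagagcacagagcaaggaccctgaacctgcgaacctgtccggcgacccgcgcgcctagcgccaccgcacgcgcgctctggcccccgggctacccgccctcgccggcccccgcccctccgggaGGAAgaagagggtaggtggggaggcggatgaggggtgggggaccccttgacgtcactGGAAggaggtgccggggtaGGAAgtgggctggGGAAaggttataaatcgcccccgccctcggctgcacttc
Tek (chr4:94739039-94739288, plus strand): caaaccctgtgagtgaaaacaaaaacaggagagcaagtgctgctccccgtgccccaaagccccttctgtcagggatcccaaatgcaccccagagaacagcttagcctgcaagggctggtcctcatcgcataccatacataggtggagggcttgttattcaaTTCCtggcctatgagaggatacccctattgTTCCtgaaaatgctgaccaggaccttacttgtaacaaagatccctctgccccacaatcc
The Flt1 window held 4 matches and the Tek window 2. Only windows with at least 2 matches could be printed, so these counts show the choice and are not a result. At least 2 matches stood in 10 of 11 pan-endothelial promoters in the table (90.9%), against 76.8% of all 32851 promoters of the same length, so a match is common. Windows were taken from RefSeq's gene starts, and only 4 of these 10 lay wholly outside the gene body in GENCODE. A match is a description and not a binding site.

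The ligands of these receptors divided between the compartments. Angpt2, the ligand that antagonises Tek signalling in many settings, rose, with 61.6, 51.2 and 39.03 CPM in CD31+ libraries, against 17.6, 14.7 and 10.5 CPM in CD31- libraries (log2 fold change 1.82 ± 0.29, adjusted p = 8.1e-05). Angpt1, its agonist counterpart, fell, with 6.74, 4.97 and 7.505 CPM in CD31+ libraries, against 23.3, 31.9 and 17.4 CPM in CD31- libraries (log2 fold change -1.92 ± 0.33, adjusted p = 1.6e-04). Vegfc, the main lymphatic growth factor, rose, with 89.4, 122 and 68.3 CPM in CD31+ libraries, against 23.8, 33.3 and 31.7 CPM in CD31- libraries (log2 fold change 1.66 ± 0.36, adjusted p = 0.0015). Vegfd, the related ligand, fell to 1.45, 2.41 and 3.67 CPM in CD31+ libraries, against 8.54, 8.62 and 10.2 CPM in CD31- libraries (log2 fold change -1.86 ± 0.34, adjusted p = 3.1e-04). Agonist and antagonist of Tek, and both lymphatic ligands, were thus higher in opposite fractions. Of the 8 ligands tested, 2 rose and 4 fell, against 16.1% and 16.4% of all genes. Vegfa, the main blood vessel growth factor, had overlapping libraries, with 76.1, 41.8 and 64.3 CPM in CD31+ libraries, against 73.9, 79.3 and 79.95 CPM in CD31- libraries (log2 fold change -0.36 ± 0.29, adjusted p = 0.38).

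All 17 tested endothelial transcription factors passed as higher in CD31+ libraries, with a median log2 fold change of 4.96. Gata2, a zinc-finger factor of endothelium and blood, had 285, 237 and 179 CPM in CD31+ libraries, against 0.557, 0.220 and 0.0956 CPM in CD31- libraries (log2 fold change 9.72 ± 0.53, adjusted p = 1.8e-10). Lmo2, an adaptor of GATA and TAL complexes, had 161, 152 and 107 CPM in CD31+ libraries, against 6.19, 2.49 and 3.63 CPM in CD31- libraries (log2 fold change 5.11 ± 0.29, adjusted p = 1.9e-10). Elk3, an ETS family member, was present in CD31- libraries too, with 431, 416 and 285 CPM in CD31+ libraries, against 21.96, 34.98 and 31.9 CPM in CD31- libraries (log2 fold change 3.67 ± 0.21, adjusted p = 2.6e-10). These 3 factors had the smallest adjusted p of the list. Sox7, of the SoxF group, had 552, 371 and 359.6 CPM in CD31+ libraries, against 1.86, 2.57 and 1.96 CPM in CD31- libraries (log2 fold change 7.63 ± 0.48, adjusted p = 6.5e-10). Its relatives Sox18 and Sox17 had log2 fold changes of 9.02 ± 0.62 and 9.298 ± 0.76. Erg, an ETS factor that keeps endothelial identity, had 45.9, 64.4 and 40.8 CPM in CD31+ libraries, against 0.680, 1.504 and 0.287 CPM in CD31- libraries (log2 fold change 5.88 ± 0.53, adjusted p = 6.1e-08). Klf2, the shear-responsive factor, had 1835, 2198 and 1561 CPM in CD31+ libraries, against 220.2, 371 and 302 CPM in CD31- libraries (log2 fold change 2.65 ± 0.36, adjusted p = 1.1e-05).

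Gata2 and Elk3 are shown likewise. They had the smallest adjusted p among factors whose upstream window held at least 2 matches and lay outside the gene body. RefSeq lists 2 promoters for Gata2, and the first is printed.
Gata2 (chr6:88193641-88193890, plus strand): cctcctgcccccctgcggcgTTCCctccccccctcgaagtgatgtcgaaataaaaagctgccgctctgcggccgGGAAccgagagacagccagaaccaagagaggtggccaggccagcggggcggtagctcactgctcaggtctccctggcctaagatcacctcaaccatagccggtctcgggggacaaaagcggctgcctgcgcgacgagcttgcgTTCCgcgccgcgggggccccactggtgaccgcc
Elk3 (chr10:93311160-93311409, minus strand): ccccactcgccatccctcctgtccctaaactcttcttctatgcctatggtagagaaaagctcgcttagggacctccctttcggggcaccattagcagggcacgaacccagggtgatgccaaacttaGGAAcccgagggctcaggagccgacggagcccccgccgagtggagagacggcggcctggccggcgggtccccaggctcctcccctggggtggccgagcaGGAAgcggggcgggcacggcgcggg
The Gata2 window held 3 GGAA or TTCC matches and the Elk3 window 2. At least 2 matches stood in 6 of 10 promoters of this list (60%), against 76.8% of all promoters, and 5 of these 6 windows lay wholly outside the gene body.

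Most arterial, venous and capillary genes rose. Of 10 arterial genes tested, 10 rose. Hey1, a Notch-induced arterial repressor, had 155, 199.8 and 112 CPM in CD31+ libraries, against 10.3, 13.5 and 5.64 CPM in CD31- libraries (log2 fold change 3.98 ± 0.31, adjusted p = 7.6e-09). Dll4, the Notch ligand of arteries and sprouting tips, had 509, 409.7 and 355 CPM in CD31+ libraries, against 0.495, 2.24 and 0.382 CPM in CD31- libraries (log2 fold change 8.59 ± 0.69, adjusted p = 1.3e-08). Gja5 (connexin 40), which couples arterial endothelial cells, had 118, 119 and 69.1 CPM in CD31+ libraries, against 0.433, 0.367 and 0.812 CPM in CD31- libraries (log2 fold change 7.56 ± 0.69, adjusted p = 8.0e-08). CD31+ library 3 had the lowest CD31+ value of each of these 3. Sox17, which specifies arteries, had 555, 522 and 361 CPM in CD31+ libraries, against 0.742, 0.880 and 0.621 CPM in CD31- libraries, a difference already listed among the factors.

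Of 9 venous genes tested, 8 rose, and CD31+ library 3 was the lowest CD31+ library for all 9. Ephb4, the venous ephrin receptor, had 271, 237 and 194 CPM in CD31+ libraries, against 35.2, 43.8 and 27.6 CPM in CD31- libraries (log2 fold change 2.72 ± 0.21, adjusted p = 6.9e-09). Lrg1, a secreted modulator of TGF-beta signalling in vessels, had 649, 714 and 579 CPM in CD31+ libraries, against 4.64, 1.94 and 2.44 CPM in CD31- libraries (log2 fold change 7.77 ± 0.62, adjusted p = 1.3e-08). Aplnr, the apelin receptor, had 179, 209 and 135 CPM in CD31+ libraries, against 2.66, 2.82 and 1.77 CPM in CD31- libraries (log2 fold change 6.17 ± 0.65, adjusted p = 5.6e-07). Lrg1 and Aplnr stayed under 5 CPM in each CD31- library. Vwf, the platelet-binding multimer stored in endothelium, had 374, 339 and 249 CPM in CD31+ libraries, against 4.45, 6.09 and 6.403 CPM in CD31- libraries (log2 fold change 5.82 ± 0.64, adjusted p = 9.6e-07). Ackr1, a chemokine-binding receptor of venules, had 628, 548 and 469 CPM in CD31+ libraries, against 5.07, 3.85 and 2.96 CPM in CD31- libraries (log2 fold change 7.12 ± 0.83, adjusted p = 1.9e-06). The member that did not pass, Vcam1, had high values in both compartments, with 430.3, 351 and 264 CPM in CD31+ libraries, against 236, 263 and 209.9 CPM in CD31- libraries (log2 fold change 0.56 ± 0.44, adjusted p = 0.36).

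Of 10 capillary genes tested, 9 rose. Plvap (chromosome 8, 71497765-71511752, minus strand), which forms the diaphragms of fenestrated capillaries, was the third highest gene of the CD31+ libraries by length-scaled level. It averaged 9436 ± 1417 TPM in CD31+ libraries and 25.98 ± 9.94 TPM in CD31- libraries (SD, n = 3 each; log2 fold change 8.56 ± 0.55, adjusted p = 8.9e-10). Gpihbp1, which carries lipoprotein lipase to the capillary lumen, had 111, 109.6 and 100 CPM in CD31+ libraries, against 0, 0 and 0 CPM in CD31- libraries, so that it was at least 2284-fold higher against a floor of 3 counts over the CD31- group (adjusted p = 7.1e-10). Fabp4, a fatty acid binding protein, had 1947, 2662 and 1828 CPM in CD31+ libraries, against 9.34, 8.84 and 7.41 CPM in CD31- libraries (log2 fold change 7.97 ± 0.53, adjusted p = 1.3e-09). Rbp7, a retinol binding protein, had 177, 195 and 133 CPM in CD31+ libraries, against 0.804, 0.257 and 0.478 CPM in CD31- libraries (log2 fold change 8.42 ± 0.61, adjusted p = 4.3e-09).

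Genes of vascular lipid transport overlap with the capillary list and rose in 9 of 11 tested members. Scarb1, the HDL receptor, had 636, 624 and 492 CPM in CD31+ libraries, against 24.4, 22.9 and 29.7 CPM in CD31- libraries (log2 fold change 4.51 ± 0.29, adjusted p = 8.9e-10). Cavin2, a caveolar coat protein, had 1530, 1664 and 1082 CPM in CD31+ libraries, against 115, 99.7 and 87.8 CPM in CD31- libraries (log2 fold change 3.82 ± 0.22, adjusted p = 2.6e-10). Lpl, the lipase that Gpihbp1 transports, moved the other way and fell to 35.5, 70.01 and 131 CPM in CD31+ libraries, against 275, 466 and 396 CPM in CD31- libraries (log2 fold change -2.27 ± 0.33, adjusted p = 3.2e-05). The enzyme and its carrier were therefore higher in opposite fractions.

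Lymphatic genes rose in 9 of 12 tested members. Ccl21a, the chemokine that draws dendritic cells into lymphatics, had 1295, 1334 and 1103 CPM in CD31+ libraries, against 13.4, 22.6 and 11.7 CPM in CD31- libraries (log2 fold change 6.29 ± 0.44, adjusted p = 2.5e-09). Ccl21 genes have near-identical copies, so the split of reads among them is uncertain. Lyve1, the hyaluronan receptor of lymphatics, had 225, 329 and 227 CPM in CD31+ libraries, against 0.433, 1.94 and 1.43 CPM in CD31- libraries (log2 fold change 7.62 ± 0.64, adjusted p = 2.2e-08). CD31+ library 2 was the highest CD31+ library for both genes. Mmrn1, a matrix glycoprotein of lymphatic endothelium and platelets, had 434, 519.6 and 399 CPM in CD31+ libraries, against 0.928, 0.954 and 0 CPM in CD31- libraries (log2 fold change 9.47 ± 0.79, adjusted p = 2.2e-08). Prox1, the factor that specifies lymphatic fate, had 31.2, 44.9 and 19.8 CPM in CD31+ libraries, against 1.36, 3.41 and 2.01 CPM in CD31- libraries (log2 fold change 3.79 ± 0.42, adjusted p = 1.1e-06). Pdpn, podoplanin, moved against the rest of the list and fell to 9.48, 10.7 and 29.2 CPM in CD31+ libraries, against 63.8, 98.2 and 89.7 CPM in CD31- libraries (log2 fold change -2.35 ± 0.36, adjusted p = 5.2e-05). Podoplanin is also made by fibroblasts. The summed lymphatic level was 3048, 3252 and 2696 TPM in CD31+ Rspo3- libraries, against 119.5, 236 and 143 TPM in CD31- Rspo3- libraries. Colonic CD31+ Rspo3+ libraries, a gate not part of this contrast, had 55805, 67816 and 60890 TPM. In those Rspo3+ libraries the summed level of 15 chemokines was 49490, 61295 and 53034 TPM. Both sums include Ccl21a, and its share was not separated, so the lymphatic sum need not describe the other members.

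Notch genes rose in 10 of 14 tested members. Notch4, the endothelial Notch receptor, had 146, 98.2 and 87.7 CPM in CD31+ libraries, against 0.866, 1.14 and 1.15 CPM in CD31- libraries (log2 fold change 6.697 ± 0.42, adjusted p = 5.8e-10). Jag2, a Notch ligand, had 127, 166 and 76.9 CPM in CD31+ libraries, against 0.495, 0.330 and 0.812 CPM in CD31- libraries (log2 fold change 7.82 ± 0.73, adjusted p = 1.1e-07). Nrarp, a feedback target of the pathway, had 277, 212 and 230 CPM in CD31+ libraries, against 17.8, 11.96 and 7.69 CPM in CD31- libraries (log2 fold change 4.27 ± 0.57, adjusted p = 9.9e-06). These 3 genes, a receptor, a ligand and a target, were all higher in CD31+ libraries. The targets Hes1 and Heyl and the receptor Notch3 did not pass. Notch2 was the receptor that fell, to 6.54, 5.404 and 9.06 CPM in CD31+ libraries, against 22.4, 68.4 and 30.9 CPM in CD31- libraries (log2 fold change -2.54 ± 0.48, adjusted p = 4.3e-04).

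Junction genes rose in 12 of 15 tested members. Cldn5, the main tight junction claudin of endothelium, had 229, 308 and 225 CPM in CD31+ libraries, against 2.04, 0.0733 and 2.103 CPM in CD31- libraries (log2 fold change 7.55 ± 0.64, adjusted p = 2.7e-08). Jam2, a junctional adhesion molecule, had 575, 630.1 and 450.1 CPM in CD31+ libraries, against 99.2, 87.7 and 79.4 CPM in CD31- libraries (log2 fold change 2.64 ± 0.37, adjusted p = 2.0e-05). F11r, its relative Jam-A, had 379, 317 and 266 CPM in CD31+ libraries, against 63.2, 33.3 and 59.2 CPM in CD31- libraries (log2 fold change 2.63 ± 0.56, adjusted p = 0.0012). Cldn5 was nearly absent from CD31- libraries, and the adhesion molecules were not. Cgn, the tight junction protein cingulin, was the 1 member that passed as lower, with 0.549, 1.59 and 4.96 CPM in CD31+ libraries, against 22.4, 10.01 and 16.1 CPM in CD31- libraries (log2 fold change -2.76 ± 1.003, adjusted p = 0.041), but not when CD31- library 1 or 3 or CD31+ library 1 or 2 was left out, when 0 members fell.

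Leukocyte adhesion genes rose in 7 of 9 tested members. Podxl, a sialomucin ligand of selectins, had 883, 838 and 601 CPM in CD31+ libraries, against 1.98, 1.87 and 2.06 CPM in CD31- libraries (log2 fold change 8.62 ± 0.58, adjusted p = 1.4e-09). Madcam1, the mucosal addressin that guides lymphocytes to the gut, had 482, 493 and 370.3 CPM in CD31+ libraries, against 3.96, 1.14 and 0.478 CPM in CD31- libraries (log2 fold change 7.97 ± 0.94, adjusted p = 2.4e-06). Selp and Sele, the P- and E-selectins that catch rolling leukocytes, were as separate. Selp had 1876, 1315 and 1199 CPM in CD31+ libraries, against 7.61, 3.01 and 2.15 CPM in CD31- libraries (log2 fold change 8.44 ± 1.11, adjusted p = 9.2e-06). Sele had 342, 275 and 209 CPM in CD31+ libraries, against 2.598, 0.844 and 0.573 CPM in CD31- libraries (log2 fold change 7.74 ± 0.93, adjusted p = 2.8e-06). The selectins and the addressin were all at under 10 CPM in CD31- libraries. Icam1, a ligand of leukocyte integrins, was abundant in both fractions, with 2526, 1975 and 1657 CPM in CD31+ libraries, against 551, 591 and 706 CPM in CD31- libraries (log2 fold change 1.74 ± 0.24, adjusted p = 1.4e-05).

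Genes of nitric oxide, endothelin and adrenomedullin signalling rose in 9 of 14 tested members. Nos3, the endothelial nitric oxide synthase, had 427, 362 and 295 CPM in CD31+ libraries, against 1.24, 0.697 and 0 CPM in CD31- libraries (log2 fold change 9.17 ± 0.76, adjusted p = 2.1e-08). Ramp2, a subunit of the adrenomedullin receptor, had 497, 734 and 451 CPM in CD31+ libraries, against 91.9, 115 and 126 CPM in CD31- libraries (log2 fold change 2.33 ± 0.24, adjusted p = 2.8e-07). Its partner Calcrl had 649, 946 and 623 CPM in CD31+ libraries, against 145, 245 and 162 CPM in CD31- libraries (log2 fold change 2.01 ± 0.30, adjusted p = 3.3e-05). Both subunits were detected in every CD31- library. Edn1, the vasoconstrictor peptide endothelin 1, had 151, 277 and 126 CPM in CD31+ libraries, against 16.7, 7.99 and 24.5 CPM in CD31- libraries (log2 fold change 3.49 ± 0.72, adjusted p = 9.8e-04). Ednra, the receptor through which muscle responds to it, fell to 41.9, 41.6 and 86.2 CPM in CD31+ libraries, against 180.1, 266 and 175 CPM in CD31- libraries (log2 fold change -1.87 ± 0.39, adjusted p = 0.0011). It was the member that fell; without CD31- library 1, and by DESeq2 or limma voom, 2 fell. Ligand and receptor were higher in different fractions.

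The PDGF system showed a similar division. Pdgfb, the ligand by which endothelium recruits mural cells, had 70.4, 94.6 and 59.6 CPM in CD31+ libraries, against 9.402, 9.46 and 6.59 CPM in CD31- libraries (log2 fold change 3.14 ± 0.52, adjusted p = 1.2e-04). Pdgfd, its relative, had 174, 153 and 145 CPM in CD31+ libraries, against 48.5, 53.4 and 50.9 CPM in CD31- libraries (log2 fold change 1.63 ± 0.18, adjusted p = 1.3e-06). Pdgfra, the receptor of fibroblasts, fell to 14.5, 28.1 and 193 CPM in CD31+ libraries, against 509.9, 692 and 601 CPM in CD31- libraries (log2 fold change -2.94 ± 0.64, adjusted p = 0.0015). CD31+ library 3 was the highest of its group, and without it the log2 fold change was -4.86. Of 7 genes tested, 2 rose and 3 fell, against 16.1% and 16.4% of all genes. Without CD31- library 1, CD31- library 2 or CD31+ library 1, 1 fell.

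Fibroblast genes were lower in CD31+ libraries. Of 15 pan-fibroblast genes, 15 fell, with a median log2 fold change of -2.87, and of -4.25 without CD31+ library 3. Col3a1, a fibrillar collagen, had 563, 821 and 3968 CPM in CD31+ libraries, against 11263, 15601 and 11880 CPM in CD31- libraries (log2 fold change -2.86 ± 0.56, adjusted p = 5.7e-04), and its log2 fold change was -4.27 without that library. Postn, a matricellular protein, had 157, 293 and 959 CPM in CD31+ libraries, against 2863, 3844 and 2975 CPM in CD31- libraries (log2 fold change -2.78 ± 0.43, adjusted p = 5.2e-05). Col5a1, which nucleates collagen fibrils, had 29.7, 56.8 and 215 CPM in CD31+ libraries, against 643, 1076 and 896 CPM in CD31- libraries (log2 fold change -3.12 ± 0.52, adjusted p = 1.2e-04). Mmp2, a gelatinase, had 77.1, 98.9 and 411 CPM in CD31+ libraries, against 1008, 1246 and 1095 CPM in CD31- libraries (log2 fold change -2.51 ± 0.42, adjusted p = 1.3e-04). CD31+ library 3 was the highest CD31+ library for 15 of the 15 genes. Col6a3, of the microfibrillar collagens, had 25.1, 27.1 and 113 CPM in CD31+ libraries, against 362, 679 and 404 CPM in CD31- libraries (log2 fold change -3.13 ± 0.54, adjusted p = 1.8e-04). In each of these genes CD31+ library 3 was several times the other CD31+ libraries and still under the lowest CD31- library. Its place is shown in the plot of fold changes with and without it.

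**Figure D4:**
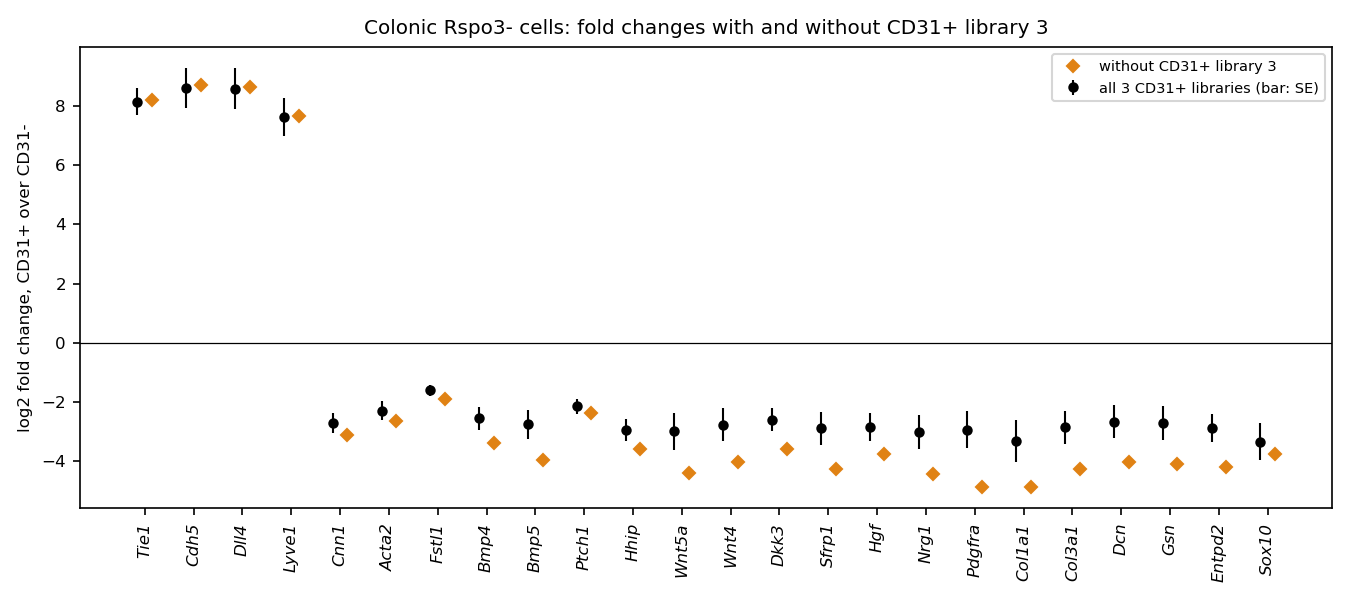
Log2 fold change of 24 genes, CD31+ over CD31-, from all 3 CD31+ libraries (black, bar: SE) and without CD31+ library 3 (orange). Fibroblast genes move away from 0 without it, as Col3a1 from all libraries at -2.86 and without the library at -4.27, and endothelial genes such as Tie1 move little.

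Pdgfra-high fibroblasts are the subepithelial cells next to the crypt and villus epithelium, and 10 of 11 of their tested genes fell. Agt, angiotensinogen, had 7.54, 11.2 and 43.9 CPM in CD31+ libraries, against 145, 153 and 149 CPM in CD31- libraries (log2 fold change -2.83 ± 0.49, adjusted p = 1.8e-04). Bmp5, a BMP ligand of these cells, had 21.5, 26.4 and 111 CPM in CD31+ libraries, against 299, 412 and 365 CPM in CD31- libraries (log2 fold change -2.76 ± 0.48, adjusted p = 2.0e-04). Nrg1, an ErbB ligand, had 2.65, 1.16 and 10.8 CPM in CD31+ libraries, against 31.1, 49.6 and 39.4 CPM in CD31- libraries (log2 fold change -3.03 ± 0.57, adjusted p = 4.3e-04). For all 11 of these genes, library 3 was the highest of the CD31+ group. F3, tissue factor, had 19.1, 24.7 and 111 CPM in CD31+ libraries, against 388, 234 and 337 CPM in CD31- libraries (log2 fold change -2.63 ± 0.54, adjusted p = 9.3e-04). The list's median log2 fold change was -2.76, and -4.16 without CD31+ library 3.

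Of 9 genes listed for Pdgfra-low fibroblasts, the cells around the crypt base, 7 fell and 2 rose; without CD31+ library 2, 4 fell. Dpp4, a surface peptidase, had 0.150, 0.193 and 0.992 CPM in CD31+ libraries, against 10.9, 4.44 and 4.63 CPM in CD31- libraries (log2 fold change -3.83 ± 0.64, adjusted p = 1.2e-04). Ogn, a small proteoglycan, had 48.7, 100.4 and 492 CPM in CD31+ libraries, against 1314, 1516 and 1592 CPM in CD31- libraries (log2 fold change -2.79 ± 0.54, adjusted p = 5.1e-04). C3, the complement component, had 31.1, 55.3 and 275 CPM in CD31+ libraries, against 975, 1173 and 731 CPM in CD31- libraries (log2 fold change -2.995 ± 0.60, adjusted p = 7.5e-04). These 3 were highest in CD31+ library 3 within their group. The members that rose were Cd81 and Cd34, surface proteins that endothelium also bears. Cd81 had 1477, 1203 and 1082 CPM in CD31+ libraries, against 321, 181 and 180.4 CPM in CD31- libraries (log2 fold change 2.46 ± 0.29, adjusted p = 2.5e-06). Cd34 had 837, 995 and 801 CPM in CD31+ libraries, against 530.3, 460.1 and 453 CPM in CD31- libraries (log2 fold change 0.87 ± 0.23, adjusted p = 0.0074).

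Grem1, the BMP antagonist of the crypt base and one of the genes in the study's title, had 1.597, 5.55 and 28.8 CPM in CD31+ libraries, against 43.4, 81.3 and 62.4 CPM in CD31- libraries (log2 fold change -2.37 ± 0.67, adjusted p = 0.01). All 3 CD31+ libraries were under the CD31- libraries, with library 3 the highest of them. The call was lost without CD31+ library 2, at a log2 fold change of -2.03 and an adjusted p of 0.057, and in a fit of only the libraries compared, with an adjusted p of 0.081. Without CD31+ library 3 the log2 fold change was -4.16.

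Rspo3 (chromosome 10, 29452416-29535867, minus strand), the R-spondin whose reporter set the gate, did not differ detectably. It had 15.1, 11.2 and 15.9 CPM in CD31+ libraries, against 15.6, 14.7 and 12.2 CPM in CD31- libraries, a log2 fold change of -0.01 ± 0.22 with an adjusted p of 0.98. The groups overlapped. The antisense gene Gm48159 overlaps Rspo3 in the annotation, and reads from the pair cannot be told apart without strand. Rspo1, another R-spondin, fell to 0.0998, 0.531 and 1.81 CPM in CD31+ libraries, against 5.88, 5.98 and 6.31 CPM in CD31- libraries (log2 fold change -2.87 ± 0.89, adjusted p = 0.019). It was the 1 of 3 tested R-spondins that passed; the call was lost without CD31+ library 1 or 2, with adjusted p of 0.078 in both cases, and 2 R-spondins passed without CD31+ library 3.

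Smooth muscle and glial genes were lower in CD31+ libraries as well. Of 12 smooth muscle genes, 10 fell, with a median log2 fold change of -2.095, and of -2.36 without CD31+ library 3. Mylk, myosin light chain kinase, had 90.9, 92.9 and 154 CPM in CD31+ libraries, against 406, 397 and 396 CPM in CD31- libraries (log2 fold change -1.83 ± 0.20, adjusted p = 1.0e-06). Cnn1, calponin, had 22.3, 29.1 and 47.7 CPM in CD31+ libraries, against 283, 199 and 168 CPM in CD31- libraries (log2 fold change -2.71 ± 0.33, adjusted p = 3.5e-06). Acta2, smooth muscle actin, had 254, 290.3 and 473 CPM in CD31+ libraries, against 1930, 1626 and 1434 CPM in CD31- libraries (log2 fold change -2.29 ± 0.33, adjusted p = 2.7e-05). These 3 genes were detected in all 3 CD31+ libraries, and CD31+ library 3 was the highest CD31+ library for 9 of the 12 members. Des and Smtn did not pass. Smtn, smoothelin, had 182, 169.6 and 173 CPM in CD31+ libraries, against 234, 225 and 174 CPM in CD31- libraries (log2 fold change -0.27 ± 0.16, adjusted p = 0.22), and the groups overlapped.

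Of 9 enteric glia genes, 8 fell, with a median log2 fold change of -2.89, and of -3.42 without CD31+ library 3. Entpd2, an ectonucleotidase, had 10.8, 17.2 and 71.7 CPM in CD31+ libraries, against 314, 209 and 219 CPM in CD31- libraries (log2 fold change -2.89 ± 0.48, adjusted p = 1.1e-04). Scn7a, an atypical sodium channel, had 12.1, 11.2 and 53.1 CPM in CD31+ libraries, against 236, 276 and 162 CPM in CD31- libraries (log2 fold change -3.14 ± 0.54, adjusted p = 1.8e-04). Within the CD31+ group, library 3 was the highest for 8 of the 9 genes. Sox10, which specifies glia, had 1.65, 2.12 and 3.49 CPM in CD31+ libraries, against 36.3, 24.9 and 12.7 CPM in CD31- libraries (log2 fold change -3.34 ± 0.62, adjusted p = 3.4e-04). S100b, a calcium-binding glial marker, had 1.098, 2.27 and 4.01 CPM in CD31+ libraries, against 20.1, 18.1 and 14.3 CPM in CD31- libraries (log2 fold change -2.83 ± 0.54, adjusted p = 4.5e-04).

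Of 9 pericyte genes tested, 2 rose and 1 fell, shares near the 16.1% and 16.4% of all genes. When any of the 6 libraries was left out 0 fell, and by limma voom 4 rose. Rgs5, a regulator of G-protein signalling typical of pericytes, had 566, 309.9 and 448 CPM in CD31+ libraries, against 179.7, 199 and 139.5 CPM in CD31- libraries (log2 fold change 1.35 ± 0.29, adjusted p = 0.0015). Ndufa4l2, a hypoxia-induced mitochondrial protein, had 52.1, 27.1 and 42.5 CPM in CD31+ libraries, against 21.2, 13.3 and 9.37 CPM in CD31- libraries (log2 fold change 1.47 ± 0.36, adjusted p = 0.0036). Kcnj8, a potassium channel subunit of pericytes, overlapped, with 42.9, 35.5 and 59.9 CPM in CD31+ libraries, against 50.7, 54.8 and 61.1 CPM in CD31- libraries (log2 fold change -0.27 ± 0.20, adjusted p = 0.34).

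Of 11 enteric neuron genes, 1 rose and 3 fell, against 16.1% and 16.4% of all genes. The number that fell was 1 without CD31- library 1 or CD31+ library 1 or 2, and 6 by DESeq2. The member that rose was Stmn2, a microtubule regulator, with 85.5, 94.7 and 67.02 CPM in CD31+ libraries, against 21.5, 19.6 and 19.3 CPM in CD31- libraries (log2 fold change 2.04 ± 0.38, adjusted p = 3.6e-04). Nos1, the neuronal nitric oxide synthase, had 0.898, 1.78 and 2.03 CPM in CD31+ libraries, against 4.45, 9.87 and 9.18 CPM in CD31- libraries (log2 fold change -2.31 ± 0.56, adjusted p = 0.0037). Of 18 epithelial genes tested, 10 passed as lower, but 0 did without CD31- library 1 or CD31+ library 1 or 2, and CD31+ library 3 was the highest CD31+ library for 16 of the 18.

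Markers of immune and blood cells gave 0 calls in either direction by edgeR's test. Of 9 myeloid genes, 0 passed at an adjusted p of 0.05 in edgeR's test, with 1 higher at an unadjusted p under 0.05, and at most 1 passed by another tool. Of 9 lymphocyte and plasma cell genes, 0 passed by edgeR or another tool and 0 had an unadjusted p under 0.05. The summed levels of that list were 3642, 2795 and 10066 TPM in CD31+ libraries, against 3791, 4147 and 9653 TPM in CD31- libraries, and the third library was the highest in both groups. Of 4 erythroid genes, 0 passed by edgeR's test and 2 were higher at an unadjusted p under 0.05. As higher in CD31+ libraries, 2 passed by DESeq2, 3 by limma voom and 2 by edgeR without CD31- library 1, and libraries of the groups did not overlap for 3.

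Secreted signals of the crypt niche were mostly lower in CD31+ libraries. Of 12 BMP and TGF-beta ligands, 10 fell and 2 rose. Bmp4, the main mesenchymal BMP of the gut, had 50.2, 53.8 and 163 CPM in CD31+ libraries, against 423, 512 and 628 CPM in CD31- libraries (log2 fold change -2.55 ± 0.39, adjusted p = 5.1e-05). Bmp6, which also signals to hepatocytes in the liver, had 52.8, 40.8 and 82.03 CPM in CD31+ libraries, against 136, 217 and 163 CPM in CD31- libraries (log2 fold change -1.55 ± 0.26, adjusted p = 1.4e-04). Bmp2 had 32.3, 34.5 and 70.1 CPM in CD31+ libraries, against 127, 190.2 and 211 CPM in CD31- libraries (log2 fold change -1.95 ± 0.35, adjusted p = 2.4e-04). CD31+ library 3 was the highest CD31+ library for these 3 and for 11 of the 12 ligands. The ligands that rose were Inhbb and Tgfb1. Inhbb, an activin subunit, had 38.3, 70.7 and 80.2 CPM in CD31+ libraries, against 3.77, 4.69 and 6.31 CPM in CD31- libraries (log2 fold change 3.68 ± 0.45, adjusted p = 3.5e-06). Tgfb1 had 48.4, 50.03 and 42.9 CPM in CD31+ libraries, against 10.3, 20.1 and 15.7 CPM in CD31- libraries (log2 fold change 1.61 ± 0.30, adjusted p = 3.5e-04).

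Receptors for these ligands divided, with 5 of 11 that rose and 3 that fell, against 16.1% and 16.4% of all genes. Without CD31- library 1 or 3 or CD31+ library 2, and with no filter on low counts, 3 rose. Acvrl1 (ALK1), the endothelial type I receptor, had 583, 551 and 489.6 CPM in CD31+ libraries, against 141, 139.7 and 178 CPM in CD31- libraries (log2 fold change 1.82 ± 0.18, adjusted p = 2.5e-07). Bmpr2 had 129.8, 128 and 93.4 CPM in CD31+ libraries, against 24.1, 50.2 and 56.6 CPM in CD31- libraries (log2 fold change 1.42 ± 0.28, adjusted p = 6.0e-04). Bmpr1a (ALK3), a type I receptor of BMP4, fell to 19.3, 11.5 and 34.98 CPM in CD31+ libraries, against 108, 131 and 106 CPM in CD31- libraries (log2 fold change -2.39 ± 0.38, adjusted p = 7.0e-05). The receptors thus lay in both fractions.

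Of 11 BMP antagonists, 9 fell. Fstl1, a secreted follistatin-like glycoprotein, had 209, 247 and 355 CPM in CD31+ libraries, against 856, 824 and 794 CPM in CD31- libraries (log2 fold change -1.61 ± 0.19, adjusted p = 3.1e-06). Fstl3, an activin-binding protein, had 18.97, 18.2 and 37.2 CPM in CD31+ libraries, against 102, 98.02 and 104 CPM in CD31- libraries (log2 fold change -2.03 ± 0.28, adjusted p = 1.5e-05). Twsg1, a cofactor of chordin, had 82.6, 112 and 231 CPM in CD31+ libraries, against 446, 619.7 and 506 CPM in CD31- libraries (log2 fold change -1.88 ± 0.26, adjusted p = 1.9e-05). All 3 were still detected in every CD31+ library, at levels highest in library 3.

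Of 10 Wnt ligands tested, 6 fell and 1 rose. Wnt4 had 2.895, 6.51 and 23.6 CPM in CD31+ libraries, against 52.2, 78.5 and 94.8 CPM in CD31- libraries (log2 fold change -2.77 ± 0.55, adjusted p = 6.8e-04). Wnt5a, the non-canonical ligand of the mesenchyme, had 6.34, 4.54 and 30.5 CPM in CD31+ libraries, against 84.9, 127 and 119.7 CPM in CD31- libraries (log2 fold change -2.998 ± 0.64, adjusted p = 0.0012). Wnt5b had 2.85, 5.55 and 16.3 CPM in CD31+ libraries, against 46.02, 60.99 and 51.7 CPM in CD31- libraries (log2 fold change -2.68 ± 0.62, adjusted p = 0.0024). Without CD31+ library 3 the log2 fold changes of these 3 were -4.04, -4.39 and -3.700. The ligand that rose, Wnt9b, was detected at under 1 CPM in CD31+ libraries (0.799, 0.579 and 0.259 CPM) and at 0 in CD31- libraries, at least 11.4-fold higher against the floor of 3 counts (adjusted p = 0.0051).

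Of 9 Wnt antagonists, 8 fell and 1 rose, and the number that fell was 5 without CD31- library 1, 4 without CD31+ library 1 and 3 without CD31+ library 2. Dkk3, a Dickkopf relative, had 46.6, 53.4 and 190.2 CPM in CD31+ libraries, against 552, 598 and 608 CPM in CD31- libraries (log2 fold change -2.598 ± 0.39, adjusted p = 4.0e-05). Sfrp1, a secreted Frizzled-related inhibitor, had 21.6, 37.7 and 164 CPM in CD31+ libraries, against 403, 747 and 513 CPM in CD31- libraries (log2 fold change -2.899 ± 0.57, adjusted p = 6.4e-04). Dkk2, a Dickkopf inhibitor of Wnt co-receptors, moved the other way, with 19.9, 23.3 and 8.37 CPM in CD31+ libraries, against 2.17, 2.09 and 6.12 CPM in CD31- libraries (log2 fold change 2.31 ± 0.57, adjusted p = 0.0043).

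Hedgehog signalling runs in the gut from epithelium to mesenchyme, and 8 of 9 tested genes of the pathway fell. Ptch1, the Hedgehog receptor and target, had 23.3, 17.6 and 29.2 CPM in CD31+ libraries, against 70.3, 132 and 109 CPM in CD31- libraries (log2 fold change -2.15 ± 0.25, adjusted p = 2.2e-06). Hhip, a decoy receptor, had 35.1, 38.5 and 92.5 CPM in CD31+ libraries, against 429, 499 and 349.6 CPM in CD31- libraries (log2 fold change -2.94 ± 0.37, adjusted p = 4.6e-06). Smo, the signal transducer, had 7.99, 14.3 and 18.1 CPM in CD31+ libraries, against 55.98, 74.9 and 53.3 CPM in CD31- libraries (log2 fold change -2.19 ± 0.30, adjusted p = 1.7e-05). All 9 genes of the pathway were highest in library 3 within the CD31+ group. Foxf2, a mesenchymal target, had 3.04, 5.36 and 20.8 CPM in CD31+ libraries, against 65.01, 93.04 and 91.2 CPM in CD31- libraries (log2 fold change -3.09 ± 0.51, adjusted p = 1.1e-04). Without CD31+ library 3, 9 fell.

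Of 17 growth factors, 11 fell and 2 rose, and 7 fell without CD31+ library 1 or 2. Fgf2 had 3.74, 2.85 and 5.95 CPM in CD31+ libraries, against 18.8, 30.6 and 17.8 CPM in CD31- libraries (log2 fold change -2.42 ± 0.35, adjusted p = 2.9e-05). Hgf, the ligand of Met, had 3.04, 5.74 and 15.4 CPM in CD31+ libraries, against 46.95, 76.7 and 51.9 CPM in CD31- libraries (log2 fold change -2.85 ± 0.48, adjusted p = 1.3e-04). Igf1 had 15.8, 28.6 and 55.7 CPM in CD31+ libraries, against 156, 166 and 138 CPM in CD31- libraries (log2 fold change -2.199 ± 0.39, adjusted p = 2.5e-04). All 3 were highest in CD31+ library 3 within the CD31+ group, as were 12 of the 17 growth factors. Kitl, the ligand of the Kit receptor, rose, with 161, 109.7 and 96.01 CPM in CD31+ libraries, against 24.1, 53.1 and 43.4 CPM in CD31- libraries (log2 fold change 1.603 ± 0.35, adjusted p = 0.0016).

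Of 15 chemokines, 8 fell and 2 rose, against 16.4% and 16.1% of all genes, so the share that rose was near that of all genes. Without CD31+ library 1 or 2, 5 fell. Ccl11, eotaxin, had 98.7, 78.2 and 209 CPM in CD31+ libraries, against 278, 396 and 496 CPM in CD31- libraries (log2 fold change -1.601 ± 0.31, adjusted p = 4.7e-04). Cxcl14 had 5.59, 7.48 and 34.5 CPM in CD31+ libraries, against 70.8, 103 and 122 CPM in CD31- libraries (log2 fold change -2.63 ± 0.51, adjusted p = 5.9e-04). Besides Ccl21a, Cx3cl1, the membrane-bound chemokine fractalkine, rose, with 128, 108 and 114 CPM in CD31+ libraries, against 37.4, 27.6 and 31.97 CPM in CD31- libraries (log2 fold change 1.85 ± 0.38, adjusted p = 9.2e-04). Of 12 cytokines, 4 rose and 2 fell, against 16.1% and 16.4% of all genes, so the share that fell was near that of all genes. The number that fell was 1 without CD31- library 3 or CD31+ library 1, and 4 by DESeq2. Tnfsf10 (TRAIL) had 132, 93.5 and 69.7 CPM in CD31+ libraries, against 3.71, 2.86 and 2.25 CPM in CD31- libraries (log2 fold change 5.07 ± 0.44, adjusted p = 4.3e-08). Csf3, the granulocyte colony-stimulating factor, had 186, 125 and 126 CPM in CD31+ libraries, against 1.299, 0.660 and 0.669 CPM in CD31- libraries (log2 fold change 7.402 ± 0.89, adjusted p = 2.8e-06). Both were nearly absent from CD31- libraries. Il34, a ligand of the macrophage CSF receptor, fell to 19.9, 13.2 and 30.8 CPM in CD31+ libraries, against 50.97, 58.5 and 55.00 CPM in CD31- libraries (log2 fold change -1.36 ± 0.29, adjusted p = 0.0012).

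Retinoic acid genes fell in 5 of 9 tested members and rose in 1, or in 2 by DESeq2 and without CD31- library 2 or CD31+ library 3. Aldh1a2, a retinaldehyde dehydrogenase that makes retinoic acid, had 3.095, 4.05 and 14.1 CPM in CD31+ libraries, against 47.9, 55.5 and 41.05 CPM in CD31- libraries (log2 fold change -2.76 ± 0.48, adjusted p = 1.8e-04). Rdh10, which makes retinaldehyde, had 37.5, 33.4 and 78.97 CPM in CD31+ libraries, against 142, 166 and 197 CPM in CD31- libraries (log2 fold change -1.75 ± 0.26, adjusted p = 3.4e-05). Cyp26b1, which degrades retinoic acid, was the member that rose, with 39.4, 8.202 and 11.3 CPM in CD31+ libraries, against 0.433, 0.513 and 0.0478 CPM in CD31- libraries (log2 fold change 5.83 ± 1.03, adjusted p = 2.2e-04). Makers and the degrading enzyme were thus higher in different fractions.

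Prostaglandin genes fell in 6 of 10 tested members. Ptgs2 (COX-2), the inducible synthase, had 31.9, 23.6 and 64.7 CPM in CD31+ libraries, against 176, 252 and 204 CPM in CD31- libraries (log2 fold change -2.39 ± 0.36, adjusted p = 4.8e-05). Ptges, prostaglandin E synthase, had 17.7, 10.4 and 54.2 CPM in CD31+ libraries, against 148, 129 and 147 CPM in CD31- libraries (log2 fold change -2.36 ± 0.41, adjusted p = 2.0e-04). Ptger2, a prostaglandin E2 receptor, had 0.898, 2.32 and 3.06 CPM in CD31+ libraries, against 17.4, 17.9 and 12.2 CPM in CD31- libraries (log2 fold change -2.91 ± 0.44, adjusted p = 4.5e-05). The inducible enzyme, the terminal synthase and a receptor fell together. Ptgs1 (COX-1), the constitutive synthase, did not pass, with 193, 196 and 187 CPM in CD31+ libraries, against 124, 181 and 172 CPM in CD31- libraries (log2 fold change 0.27 ± 0.23, adjusted p = 0.4).

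Of 14 basement membrane genes tested, 6 fell and 1 rose, against 16.4% and 16.1% of all genes. The number that rose was 2 without CD31- library 1 and by DESeq2 or limma voom. Lama2, a laminin chain of muscle and mesenchyme, had 20.9, 15.6 and 53.2 CPM in CD31+ libraries, against 153, 309.6 and 196 CPM in CD31- libraries (log2 fold change -2.88 ± 0.49, adjusted p = 1.7e-04). Col18a1 had 164, 141 and 237 CPM in CD31+ libraries, against 461, 665 and 368 CPM in CD31- libraries (log2 fold change -1.46 ± 0.31, adjusted p = 0.0012). Nid2, a nidogen that links laminin and collagen IV, rose, with 121, 102 and 115 CPM in CD31+ libraries, against 42.00, 61.8 and 29.5 CPM in CD31- libraries (log2 fold change 1.34 ± 0.29, adjusted p = 0.0013). Col4a2, a collagen IV chain, overlapped, with 1122, 804 and 1008 CPM in CD31+ libraries, against 503, 944 and 512 CPM in CD31- libraries (log2 fold change 0.58 ± 0.35, adjusted p = 0.22).

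Interferon-stimulated genes rose in 12 of 16 tested members and fell in 0 by edgeR's test, with 1 lower at an unadjusted p under 0.05 and 1 that passed as lower by DESeq2 and without CD31- library 2 or 3. Ifi44 had 91.7, 66.6 and 58.05 CPM in CD31+ libraries, against 4.52, 5.097 and 5.64 CPM in CD31- libraries (log2 fold change 3.82 ± 0.27, adjusted p = 2.8e-09). Isg15, a ubiquitin-like modifier, had 313, 194 and 202 CPM in CD31+ libraries, against 55.7, 35.6 and 46.7 CPM in CD31- libraries (log2 fold change 2.36 ± 0.22, adjusted p = 7.6e-08). Rsad2 (viperin) had 267, 173 and 141 CPM in CD31+ libraries, against 14.5, 11.9 and 15.3 CPM in CD31- libraries (log2 fold change 3.803 ± 0.37, adjusted p = 1.6e-07). CD31+ library 1 was the highest library for all 3.

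Immediate early genes respond within minutes to stimulation and to tissue dissociation. In a list of immediate early and heat shock genes, 12 of 17 tested members rose. In that list 0 fell or were lower at an unadjusted p under 0.05. With 1 library left out 8 to 11 rose, and with other scalings, filters and tools 10 to 13. Ier3 had 2002, 1944 and 1457 CPM in CD31+ libraries, against 312, 306 and 381 CPM in CD31- libraries (log2 fold change 2.44 ± 0.27, adjusted p = 8.9e-07). Ier2 had 1982, 1697 and 1613 CPM in CD31+ libraries, against 601, 553 and 747 CPM in CD31- libraries (log2 fold change 1.48 ± 0.20, adjusted p = 1.2e-05). Zfp36, an RNA-binding protein that destabilises cytokine messages, had 5550, 4227 and 4318 CPM in CD31+ libraries, against 2262, 1726 and 1951 CPM in CD31- libraries (log2 fold change 1.25 ± 0.22, adjusted p = 1.8e-04). All 3 were also detected in every CD31- library. Fos had 9250, 8620 and 8000 CPM in CD31+ libraries, against 5211, 4869 and 5442 CPM in CD31- libraries (log2 fold change 0.74 ± 0.20, adjusted p = 0.0089).

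Of 10 cell cycle genes, 3 rose, against 16.1% of all genes. Pcna, the replication clamp, had 304, 251 and 230.4 CPM in CD31+ libraries, against 74.1, 80.7 and 86.6 CPM in CD31- libraries (log2 fold change 1.700 ± 0.17, adjusted p = 3.1e-07), and Mcm2, of the replicative helicase, had 18.8, 20.6 and 17.7 CPM in CD31+ libraries, against 9.96, 9.68 and 6.02 CPM in CD31- libraries (log2 fold change 1.15 ± 0.23, adjusted p = 7.2e-04). Mki67, a marker of cycling cells, was low in every library and did not pass, with 1.95, 1.496 and 2.37 CPM in CD31+ libraries, against 1.05, 0.697 and 0.812 CPM in CD31- libraries (log2 fold change 1.18 ± 0.67, adjusted p = 0.18). Of 7 MHC class II genes, 2 rose, and that count moved with the processing: 0 rose without CD31+ library 1 or 2 or CD31- library 2 or 3, and 1 without CD31- library 1 or CD31+ library 3. It was 2 by DESeq2, 4 by limma voom and 6 in a fit of only the libraries compared. Libraries of the groups did not overlap for 6 of the 7, all higher in CD31+ libraries, against 23.3% of all genes. H2-Ab1, a class II beta chain, had 347, 440 and 425 CPM in CD31+ libraries, against 254, 92.6 and 189.5 CPM in CD31- libraries (log2 fold change 1.18 ± 0.71, adjusted p = 0.22).

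The 15 largest rises were led by genes that were absent or nearly absent in CD31- libraries. Ssu2 had 132, 184 and 123 CPM in CD31+ libraries, against 0, 0 and 0 CPM in CD31- libraries, at least 3122-fold higher against the floor of 3 counts over the group (adjusted p = 8.3e-08). Lrrc3b had 55.01, 36.04 and 29.2 CPM in CD31+ libraries, against 0, 0 and 0 CPM in CD31- libraries, at least 848-fold higher (adjusted p = 2.4e-06). Scgb3a1, a secretoglobin, had 60.05, 85.7 and 55.2 CPM in CD31+ libraries, against 0.0619, 0 and 0 CPM in CD31- libraries, a ratio of 4287 with a 95% counting interval of 769 to 169355, which covers counting error only. The others were Gpihbp1, Gata2, Myct1, Rtp3, Ushbp1, Btnl9, Exoc3l2, Cytl1, AU021092, Zfp366, Sema3g and Prnd. Myct1, a membrane protein named for Myc, had 154, 154 and 97.3 CPM in CD31+ libraries, against 0.247, 0.147 and 0 CPM in CD31- libraries (adjusted p = 4.4e-10). Ushbp1 had 517, 475 and 341 CPM in CD31+ libraries, against 0.557, 0.440 and 0.0956 CPM in CD31- libraries (log2 fold change 10.25 ± 0.70, adjusted p = 1.9e-09). No CD31- library of either gene reached 1 CPM. Sema3g, an arterial semaphorin, had 48.4, 52.9 and 39.1 CPM in CD31+ libraries, against 0.124, 0 and 0 CPM in CD31- libraries, a ratio of 1496 with a counting interval of 414 to 12356.

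The 15 largest falls were smaller on the log2 scale. Naip1, an inflammasome receptor, had 0.948, 0.482 and 1.12 CPM in CD31+ libraries, against 32.8, 9.83 and 15.4 CPM in CD31- libraries (log2 fold change -4.49 ± 0.86, adjusted p = 4.8e-04). Clca4b, a chloride channel regulator, had 0.849, 1.496 and 3.58 CPM in CD31+ libraries, against 56.97, 19.2 and 22.1 CPM in CD31- libraries (log2 fold change -4.03 ± 0.81, adjusted p = 7.2e-04). Robo1, the Slit receptor, had 1.398, 0.820 and 6.86 CPM in CD31+ libraries, against 25.5, 61.02 and 30.2 CPM in CD31- libraries (log2 fold change -3.68 ± 0.76, adjusted p = 9.2e-04). These 3 were at under 10 CPM in every CD31+ library. Drp2, a dystrophin relative, had 0.699, 0 and 1.34 CPM in CD31+ libraries, against 7.98, 14.4 and 8.41 CPM in CD31- libraries (log2 fold change -3.901 ± 0.98, adjusted p = 0.0062). The others were Sult2b1, Cideb, Phf24, Clec2h, Btnl5-ps, Ppp1r14d, Vip, Scgn, Calb2, Rdh16 and Entpd8, and CD31- library 1 was the highest CD31- library for each of these 11 except Phf24. Vip, the vasoactive neuropeptide, had 0.200, 0 and 0.647 CPM in CD31+ libraries, against 121, 16.1 and 32.02 CPM in CD31- libraries (log2 fold change -7.57 ± 2.31, adjusted p = 0.017). Naip1, Clca4b and Vip had the order of the summed epithelial level in CD31- libraries, 9905, 2975 and 7328 TPM, with library 2 the lowest. The summed level of the 11 enteric neuron genes, a list that includes Vip, had the same order there, at 202.4, 68.26 and 78.65 TPM. Robo1 and Drp2 were instead highest in CD31- library 2. The part of epithelial or neuronal RNA in the largest falls was not tested. Of these 15 genes, 7 lost the call without CD31+ library 1 or CD31+ library 2: Vip, Scgn, Calb2, Rdh16, Entpd8, Btnl5-ps and Ppp1r14d, with adjusted p of 0.0539 to 0.157 in those fits. Vip, Scgn, Calb2, Rdh16 and Entpd8 also lost it without CD31- library 1 (adjusted p 0.050 to 0.157), Calb2 without CD31+ library 3 (0.053), and Rdh16 and Entpd8 without CD31- library 3 (0.052 and 0.075).

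By length-scaled level, B2m, the light chain of MHC class I, and Igfbp7, an IGF-binding protein of vessels, were among the 10 highest genes of CD31+ libraries. B2m averaged 14604 ± 887 TPM in CD31+ libraries and 10843 ± 781 TPM in CD31- libraries (SD, n = 3 each; log2 fold change 0.49 ± 0.20, adjusted p = 0.061). Igfbp7 averaged 8431 ± 875 TPM in CD31+ libraries and 4273 ± 601 TPM in CD31- libraries (SD, n = 3 each; log2 fold change 1.05 ± 0.25, adjusted p = 0.0036). Among the 10 highest genes of CD31- libraries were Gsn, gelsolin, and Dcn, decorin. Gsn had 741, 747 and 4241 CPM in CD31+ libraries, against 15409, 10639 and 11254 CPM in CD31- libraries (log2 fold change -2.703 ± 0.57, adjusted p = 0.0012). Dcn had 421, 471 and 2467 CPM in CD31+ libraries, against 8313, 6072 and 6886 CPM in CD31- libraries (log2 fold change -2.66 ± 0.57, adjusted p = 0.0014).

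The CD31 difference was compared with that of small intestinal Rspo3- cells, 3 CD31+ and 3 CD31- libraries made from the same kind of mice. In small intestine 7932 genes (41.6%) passed, 3823 (20.1%) higher and 4109 (21.6%) lower in CD31+ libraries. Of the genes called in the colon, 2311 were called as higher in both tissues, 2159 as lower in both and 78 in opposite directions. The interaction, colonic minus small intestinal CD31 difference, passed for 949 genes (4.98%), 605 (3.18%) with a positive and 344 (1.81%) with a negative value; without small intestinal CD31- library 3 it passed for 530.

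Wnt2 (chromosome 6, 17988940-18030585, minus strand), a canonical Wnt ligand, went in opposite directions. In colon it had 0.599, 3.57 and 3.15 CPM in CD31+ libraries, against 11.2, 12.5 and 12.2 CPM in CD31- libraries (log2 fold change -2.29 ± 0.50, adjusted p = 0.0015). In small intestine it had 23.2, 28.1 and 45.3 CPM in CD31+ libraries, against 0.173, 0.826 and 0.0541 CPM in CD31- libraries (log2 fold change 6.77 ± 0.66). The interaction was -9.06 ± 0.83, adjusted p = 2.9e-06. Fgl2, a fibrinogen-like protein, had 402, 535 and 540.5 CPM in CD31+ libraries, against 538, 480.5 and 397 CPM in CD31- libraries in colon and overlapped there. In small intestine it had 794, 1248 and 1403 CPM in CD31+ libraries, against 80.5, 103 and 108 CPM in CD31- libraries, and the interaction was -3.501 ± 0.31, adjusted p = 2.2e-06.

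Clec14a and Cav1, the main caveolar protein, rose in both tissues and less in colon. The Clec14a log2 fold change was 3.88 ± 0.25 in colon and 7.55 ± 0.31 in small intestine (interaction -3.67 ± 0.34, adjusted p = 3.9e-06). Clec14a in CD31- libraries was 21.3, 19.7 and 18.5 CPM in colon and 1.76, 0.992 and 0.919 CPM in small intestine. The Cav1 log2 fold change was 1.64 ± 0.20 in colon and 4.59 ± 0.23 in small intestine (interaction -2.95 ± 0.28, adjusted p = 4.1e-06). For Cav1, CD31- libraries had 782, 614 and 570.3 CPM in colon and 109, 77.7 and 75.1 CPM in small intestine. CD31+ libraries had 342, 320.5 and 218 CPM of Clec14a in colon and 261, 232 and 227 CPM in small intestine, and 2009, 2378 and 1749 CPM of Cav1 in colon and 2385, 1563 and 2387 CPM in small intestine. For both genes, all 3 colonic CD31- libraries were above all 3 small intestinal ones, a difference between tissues that was not tested.

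Slc25a15, the mitochondrial ornithine carrier, had a log2 fold change of 1.04 ± 0.21 in colon and -3.22 ± 0.23 in small intestine (interaction 4.27 ± 0.31, adjusted p = 3.0e-07). Its CD31- libraries had 10.8, 9.095 and 11.9 CPM in colon and 123, 116 and 183 CPM in small intestine. Lap3, a leucine aminopeptidase, had 1.42 ± 0.19 in colon and -1.61 ± 0.19 in small intestine on the same scale (interaction 3.03 ± 0.27, adjusted p = 2.2e-06). Acsl5, an acyl-CoA synthetase, had 0.39 ± 0.16 in colon and -2.67 ± 0.17 in small intestine (interaction 3.06 ± 0.24, adjusted p = 4.9e-07). Bpnt1, a nucleotidase, had 0.28 ± 0.19 in colon and -2.93 ± 0.21 in small intestine (interaction 3.204 ± 0.28, adjusted p = 2.2e-06). All of these 4 were highest in small intestinal CD31- libraries, where the summed level of the 18 epithelial genes was 12497, 11068 and 18850 TPM, against 757, 727 and 1379 TPM in small intestinal CD31+ libraries. The part of epithelial RNA in these values was not tested.

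By lists, 3 of 7 MHC class II genes had a positive interaction, and in small intestine 4 fell, against 21.6% of all genes there. Of all genes, 3.18% had a positive and 1.81% a negative interaction. H2-DMb1, a peptide-loading chaperone subunit, had a log2 fold change of 1.05 ± 0.44 in colon and -1.77 ± 0.45 in small intestine (interaction 2.83 ± 0.63, adjusted p = 0.011). Of 12 lymphatic genes, 3 had a negative interaction. Prox1 had a log2 fold change of 3.79 ± 0.42 in colon and 7.26 ± 0.52 in small intestine (interaction -3.47 ± 0.62, adjusted p = 0.0019). Of 12 smooth muscle genes, 3 had a negative interaction, among them Smtn (-1.15 ± 0.23, adjusted p = 0.0048).

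The CD31 difference was also set against that of colonic Rspo3+ cells, again with no library shared. There 6314 genes (33.1%) passed, 2839 (14.9%) higher and 3475 (18.2%) lower in CD31+ libraries. Of the genes called among Rspo3- cells, 1305 were called as higher in both gates, 1587 as lower in both and 510 in opposite directions. The interaction, Rspo3- minus Rspo3+ CD31 difference, passed for 3240 genes (17%), 1980 (10.4%) with a positive and 1260 (6.61%) with a negative value.

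Swap70, a guanine exchange factor, had 375, 355 and 261 CPM in CD31+ libraries, against 26.5, 28.2 and 26.3 CPM in CD31- libraries among Rspo3- cells (log2 fold change 3.61 ± 0.17, adjusted p = 2.7e-11). Among Rspo3+ cells it had 49.4, 46.8 and 47.99 CPM in CD31+ libraries, against 59.1, 65.4 and 65.4 CPM in CD31- libraries, and the interaction was 4.01 ± 0.22, adjusted p = 2.3e-09. Ly6c1, a surface protein of endothelium and monocytes, had a log2 fold change of 3.28 ± 0.33 among Rspo3- cells and -3.11 ± 0.32 among Rspo3+ cells (interaction 6.39 ± 0.46, adjusted p = 4.0e-08). Its CD31+ libraries had 2716, 3329 and 2252 CPM among Rspo3- cells and 116, 69.8 and 57.96 CPM among Rspo3+ cells. Cdc42ep4, Tnfrsf1b (TNF receptor 2) and Baiap2 also had opposite signs in the 2 gates. Their interactions were 4.02 ± 0.27, adjusted p = 2.2e-08, 3.81 ± 0.27, adjusted p = 4.0e-08 and 4.18 ± 0.31, adjusted p = 4.3e-08.

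Hmcn1, a large extracellular hemicentin, had -0.53 ± 0.20 among Rspo3- cells and 4.61 ± 0.24 among Rspo3+ cells as log2 fold changes (interaction -5.14 ± 0.31, adjusted p = 4.4e-09). Col23a1, a transmembrane collagen, had -0.46 ± 0.23 among Rspo3- cells and 4.63 ± 0.27 among Rspo3+ cells (interaction -5.09 ± 0.35, adjusted p = 2.8e-08). Apba2, a neuronal adaptor protein, had -0.75 ± 0.35 among Rspo3- cells and 7.002 ± 0.44 among Rspo3+ cells (interaction -7.75 ± 0.55, adjusted p = 4.0e-08). Its CD31+ libraries had 2.79, 1.93 and 1.25 CPM among Rspo3- cells and 77.6, 54.3 and 69.7 CPM among Rspo3+ cells. None of these 3 passed among Rspo3- cells.

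**Figure D5:**
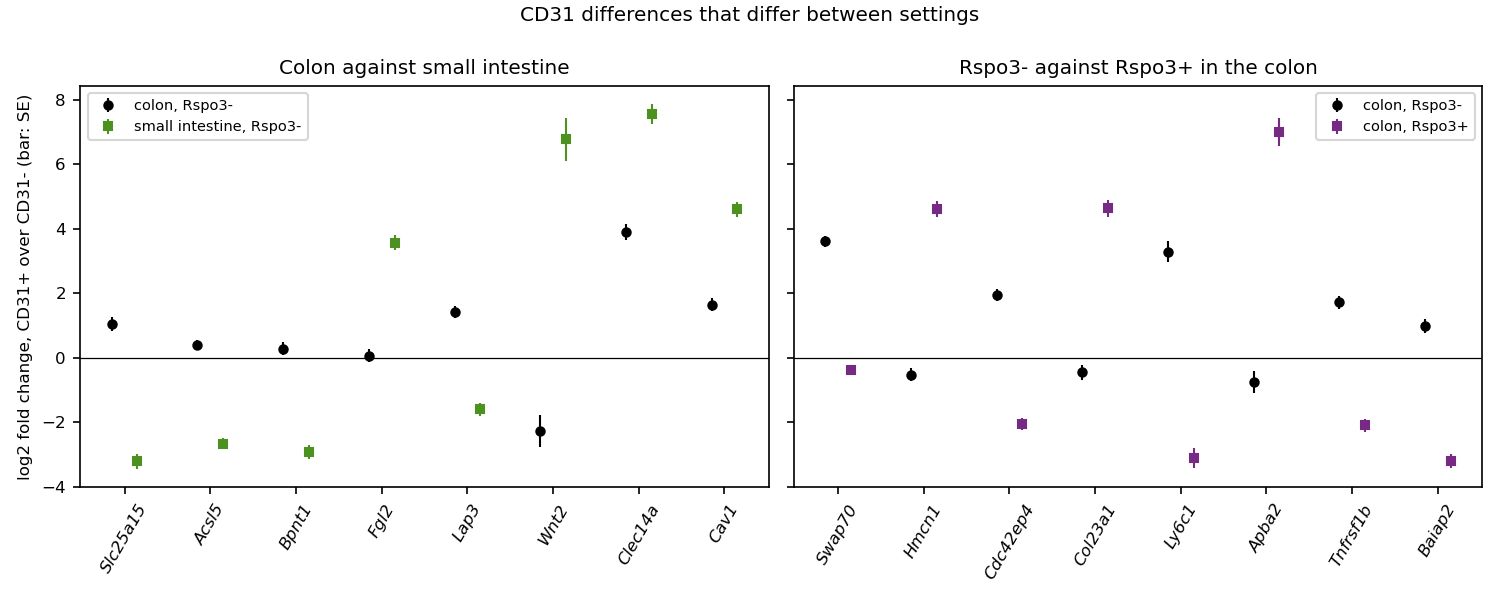
Log2 fold changes, CD31+ over CD31- (± SE), of the 8 genes with the smallest adjusted p for each interaction: colon (black) against small intestine (left panel), and Rspo3- (black) against Rspo3+ cells of the colon (right panel). Wnt2 lies below 0 in colon and above 0 in small intestine, and Hmcn1, Col23a1 and Apba2 lie above 0 among Rspo3+ cells and below 0 among Rspo3- cells.

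The lists separated the gates as well. Of all genes, 10.4% had a positive and 6.61% a negative interaction. Of 18 pan-endothelial genes, 15 had a positive interaction and 1 a negative one. Their median log2 fold change was 8.27 among Rspo3- cells and 5.297 among Rspo3+ cells. Flt1 had 8.39 ± 0.68 among Rspo3- cells and 0.60 ± 0.50 among Rspo3+ cells (interaction 7.79 ± 0.79, adjusted p = 8.3e-07). Of 9 venous genes, 7 had a positive and 1 a negative interaction, and 8 of 10 capillary genes had a positive one. Plvap had 8.56 ± 0.55 among Rspo3- cells and 1.55 ± 0.41 among Rspo3+ cells (interaction 7.01 ± 0.62, adjusted p = 2.0e-07). Of 9 leukocyte adhesion genes, 8 had a positive interaction. Ackr1 in CD31+ libraries was 628, 548 and 469 CPM among Rspo3- cells and 21.7, 2.49 and 6.17 CPM among Rspo3+ cells.

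Lymphatic genes had the other sign, with 5 of 12 members that had a negative interaction, against 6.61% of all genes. Prox1 had a log2 fold change of 3.79 ± 0.42 among Rspo3- cells and 7.43 ± 0.50 among Rspo3+ cells (interaction -3.64 ± 0.58, adjusted p = 1.3e-04). Its CD31+ libraries had 31.2, 44.9 and 19.8 CPM among Rspo3- cells and 394, 348 and 391 CPM among Rspo3+ cells. For Lyve1 the interaction was -0.78 ± 0.71, adjusted p = 0.51, although CD31+ libraries had 225, 329 and 227 CPM among Rspo3- cells and 4738, 6388 and 5851 CPM among Rspo3+ cells. The CD31- libraries moved with them: Lyve1 was 0.433, 1.94 and 1.43 CPM among Rspo3- cells and 13.3, 10.2 and 26.4 CPM among Rspo3+ cells.

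The list of immediate early and heat shock genes reversed between gates. Among Rspo3- cells 12 of 17 rose, against 16.1% of all genes, and among Rspo3+ cells 13 fell, against 18.2%. The interaction was positive for 15, against 10.4% of all genes. Zfp36 had a log2 fold change of 1.25 ± 0.22 among Rspo3- cells and -1.77 ± 0.22 among Rspo3+ cells (interaction 3.02 ± 0.31, adjusted p = 8.3e-07). Zfp36 levels were 5550, 4227 and 4318 CPM in CD31+ and 2262, 1726 and 1951 CPM in CD31- libraries of Rspo3- cells. They were 1145, 1234 and 1277 CPM in CD31+ and 5476, 3782 and 3190 CPM in CD31- libraries of Rspo3+ cells, so that the order of the fractions was opposite in the gates. Grem1 fell in both, at -2.37 ± 0.67 among Rspo3- cells and -5.31 ± 0.76 among Rspo3+ cells (interaction 2.94 ± 0.92, adjusted p = 0.032).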

How the data were processed

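RNA from sorted mouse intestinal stroma was sequenced in 24 libraries, 3 per group, of which the 6 colonic Rspo3- libraries are described and the other 18 enter the fit or the comparisons with small intestine and with Rspo3+ cells. Per the labels' protocols, total RNA (Qiagen RNeasy) went into SMARTseq libraries, a full-length chemistry without strand marks. Salmon 1.3.0, R 4.0.1 and the build mm10 are named per the submitters' processing notes. An annotation release is not given in the sources used here. One deposited table of estimated counts per gene holds whole numbers, and the authors' second table holds log2(TPM + 1), used here only for TPM levels and their sums.

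The counts were fitted with edgeR 4.0.16 in R 4.3.3 (quasi-likelihood F test, TMM scaling, 1 mean for each of 8 groups, all 24 libraries in 1 fit), after a filter on low counts (minimum 10 in a group, 15 in total) that kept 19050 of 54418 genes, with Benjamini-Hochberg adjustment over all of them and a threshold of 0.05. The fit gave a biological coefficient of variation of 0.429 and 3.50 prior degrees of freedom. Standard errors are the log2 fold change divided by the square root of F. Interactions were tested as differences of 2 such contrasts, which share no library. DESeq2 1.42.0, limma 3.58.1 voom, other scalings, other filters and leaving out each library were alternatives. The fit was tested on simulated data for the CD31 comparison among colonic Rspo3- cells, with 19050 genes and 200 changed. It made 67 calls and recovered 17% of 2-fold and 48% of 4-fold changes, with 2.99% false calls. In the data 6199 genes passed, so these recoveries need not hold there.

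Total counts over the 24 libraries were 8462041 to 29214487. Mitochondrial genes took 0.687% to 1.22% of counts in CD31+ libraries and 1.36% to 1.97% in CD31- libraries of colonic Rspo3- cells. Counts of libraries within a group differed by more than counting noise (chi-square per degree of freedom 37.6 to 85.0), so none was taken for a library deposited more than once, which does not show that they came from separate animals. The columns carry no replicate number, so libraries 1 to 3 are named in column order and are never paired. Counting intervals (95%, exact) and floors (3 counts over a group) cover counting error only. Gene positions are from GENCODE M21 (GRCm38), in which 54166 of 54418 IDs (99.5%) were found.

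The groups and gene lists were chosen with earlier results of these data known. Named genes are, in each list described, up to 4 members with the smallest adjusted p and up to 2 that passed in the other direction; the 15 largest called changes in each direction (mean of at least 10 CPM in the higher group, libraries not overlapping); the 10 genes with the highest mean TPM in each group; the 8 genes with the smallest adjusted p for each interaction; and Pecam1, Rspo3 and Grem1. Cdh5, Eng, Sox18, Erg, Klf2, Epcam, Cgn, the members given as not passing or overlapping, and the further genes drawn in the figures were chosen after their values were seen. In all, 45 lists were counted. Some genes that this rule names are not reported here.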

Additional observations from a re-analysis of the deposited data

Results flagged for a closer look

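The CD31 difference of colonic Rspo3- cells differed between tissues or gates for the results given here, each by a test of the interaction itself, and no explanation was tested. Against small intestine, 949 genes passed. On the log2 scale, as colonic minus small intestinal CD31 difference, Wnt2 was at -9.06, Clec14a at -3.67, Fgl2 at -3.50 and Cav1 at -2.95. On the same scale Slc25a15 was at 4.27, Bpnt1 at 3.20, Acsl5 at 3.06 and Lap3 at 3.03.

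Against Rspo3+ cells of the colon, 3240 genes passed. As the difference of Rspo3- cells minus that of Rspo3+ cells, Ly6c1 was at 6.39, Baiap2 at 4.18, Cdc42ep4 at 4.02, Swap70 at 4.01 and Tnfrsf1b at 3.81. Apba2 was at -7.75, Hmcn1 at -5.14 and Col23a1 at -5.09.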

How the results depend on the processing

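The direction of the CD31 differences of the named genes depended little on the processing, and the counts of calls depended on single libraries. Most of these genes were named for a small adjusted p or a large called change, so their directions were likely to hold. Directions over all genes tested were not compared. Leaving out 1 library at a time gave 2379 to 2856 genes higher and 1864 to 3371 genes lower in CD31+ libraries (3070 and 3129 from all libraries), with 1864 without CD31+ library 1, 1945 without CD31+ library 2 and 3371 without CD31+ library 3. It gave 530 to 874 genes for the interaction with tissue (949 from all libraries), the lowest without small intestinal CD31- library 3, and 2664 to 3242 for the interaction with the Rspo3 gate (3240 from all libraries). Other scalings, filters, tools and a fit of only the libraries compared gave 2557 to 3527 genes higher, 2524 to 3976 lower, 718 to 1530 for the interaction with tissue and 2665 to 3983 for the interaction with the gate. The highest count for tissue, 1530, came from DESeq2. The cause of these differences was not tested.

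Signs turned for 2 of the named genes, neither of them called among Rspo3- cells of the colon. The log2 fold change of Rspo3 was -0.16 to 0.13 over the fits without 1 library, positive without CD31- library 1 (0.02) or CD31+ library 2 (0.13). That of Fgl2 was -0.058 to 0.19, negative without CD31- library 3 (-0.05) or CD31+ library 3. Over the named genes, 33 values that left out a library lost the call and 3 gained it. With other scalings, filters and tools, 2 lost it (Grem1 and Entpd8, in the fit of only the libraries compared, with adjusted p of 0.081 and 0.066) and 11 gained it. The remaining 1382 and 1303 values, without a library and with another setting, kept their direction and their side of the threshold.

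No paired analysis was possible because the columns of the tables carry no replicate number, and column order was not used to pair libraries. Only 3 libraries per group limit the precision, so a gene that did not pass may still differ. In simulated data with 200 of 19050 genes changed, 17% of 2-fold changes were recovered. In the data 6199 genes passed, and the Benjamini-Hochberg cutoff depends on the share of genes that differ. The simulated recovery therefore need not hold for this comparison. Values under 1 CPM rest on few counts.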

Other observations

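Of 5 mesothelial genes tested, 2 fell by edgeR's test and 5 were lower at an unadjusted p under 0.05, and the summed level was 0.357, 0.621 and 0.787 TPM in CD31+ libraries, against 2.19, 7.59 and 3.64 TPM in CD31- libraries. The number that fell was 0 to 3 when 1 library was left out and 4 by limma voom. Of 4 genes of interstitial cells of Cajal, the pacemaker cells of the gut wall, 1 fell, also when any 1 library was left out, and 3 fell by limma voom; their summed level was 43.2, 27.5 and 59.8 TPM in CD31+ libraries, against 114, 140.0 and 87.5 TPM in CD31- libraries. Of 2 platelet genes tested, 0 passed by edgeR's test, 0 were at an unadjusted p under 0.05, and 0 passed by the other tools; the summed level was 12.6, 14.6 and 17.5 TPM in CD31+ libraries, against 11.6, 9.76 and 18.9 TPM in CD31- libraries.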
